A study of Mus musculus with 6 samples.

Results

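The genes described here are the matrix metalloproteinases (MMPs), the ADAM and ADAMTS proteases, the ADAMTS-like proteins (ADAMTSL) and the tissue inhibitors of metalloproteinases (TIMPs), read in 4T1 mammary tumours with and without knockdown of Bptf. They were taken by symbol, as every probe set annotated to exactly 1 gene whose name is Mmp, Timp, Adam, Adamts or Adamtsl followed by a number. This gave 85 of the 22690 probe sets and 56 of the 12393 genes read by any such probe set: 13 secreted MMPs, 5 membrane MMPs, 25 ADAMs, 7 ADAMTS, 2 ADAMTSL and 4 TIMPs. The tumours labelled Bptf KD (n = 3) came from the mouse mammary tumour line 4T1, treated with short hairpin RNAs, delivered by the retrovirus MMLV, against Bptf, the largest subunit of the chromatin remodelling complex NURF. The control tumours (n = 3) grew from control 4T1 cells, for which the sources used here give no vector. Each host, an NSG mouse (Ifrg2r -/- (NSG) in the labels), received 10000 cells of either kind in the fourth mammary fat pad, and the tumours were taken on day 21. This strain keeps myeloid cells but has no mature T, B or natural killer cells. Neither the age of the hosts nor the number of cell clones is given. RNA of each tumour was read on 1 Affymetrix array, so every value is a log2 level of a whole tumour with its host stroma.

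MMPs are zinc-dependent endopeptidases, made as inactive precursors, that cut collagens, gelatin and other matrix proteins. ADAMs are membrane-bound relatives that release the outer part of cell surface proteins, ADAMTS enzymes are secreted and cut proteoglycans and procollagens, and ADAMTSL proteins resemble ADAMTS but have no protease domain. TIMPs bind and block MMPs and some ADAMs and ADAMTS. In mammary tumours much of this set is made by fibroblasts, fat cells and leukocytes of the stroma as well as by tumour cells.

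Median log2 values were 7.6 to 7.7 on the 6 arrays. Within a group, arrays correlated across genes at 0.934 to 0.988, and the tumour labelled control 2 stood apart: 8.66% of its genes differed 2-fold or more from its group's other tumours, and this share was 0.443% to 2.51% in each of the other 5. Bptf, the target, read 9.60, 9.56 and 9.99 in the Bptf KD tumours and 10.69, 9.77 and 10.59 in controls 1, 2 and 3, with a difference of -0.63 (limma adjusted p = 0.371; lowest 0.00905 and highest 0.730 among the alternatives). On the other 3 Bptf probe sets the tumour labelled control 2 was below every Bptf KD tumour. The target thus went against the label there, and each direction below counts that tumour among the controls. It also had the highest mean of the skeletal muscle markers (11.6, with 6.61 to 8.91 in the other controls) and of the keratinocyte markers (9.67, with 7.02 to 7.20). Epithelial markers were present in all tumours, with list means of 10.5 to 10.7 in Bptf KD tumours and 9.63 to 10.3 in controls.

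Transcripts of 4 matrix-degrading enzymes were lower in Bptf KD tumours: the aggrecanase Adamts5, its relative Adamts15, the gelatinase Mmp2 and the stromelysin Mmp3 had log2 differences of -2.16 to -1.31. No member rose past the threshold, and the TIMPs, the membrane MMP Mmp14 and the main sheddases Adam10 and Adam17 did not pass it. A gene was read from its brightest probe set, and genes whose probe sets lay in the lowest 30% by mean level (6.09 or less) were not tested, which kept 35 of the 56 members and 9248 genes in all. Of the 35, limma called 4 lower and 0 higher at an adjusted p under 0.05 over all genes. Of all genes tested 0.811% were called, 0.66% lower and 0.151% higher. At an unadjusted p below 0.05, 11 members were lower and none higher, beside 5.82% and 7.66% of all genes. In 13 members every Bptf KD tumour was below every control, a pattern seen in 8.17% of all genes, and in 0 members was every Bptf KD tumour above every control, against 11.8% of all genes. The median difference of the 35 was -0.13, with 27 negative, beside a median of 0.06 and 39.8% negative over all genes. Adamts15 and Timp4 passed the level filter only through their control tumours, a route that only lower genes can take. Both are among the 11 and the 13, and Adamts15 is among the 4, so these 2 members are no independent sign of a fall. The counts describe the members read and not all 56. With no level filter the 56 gave the same 4 calls, and 11 had an unadjusted p below 0.05.

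**Figure D1:**
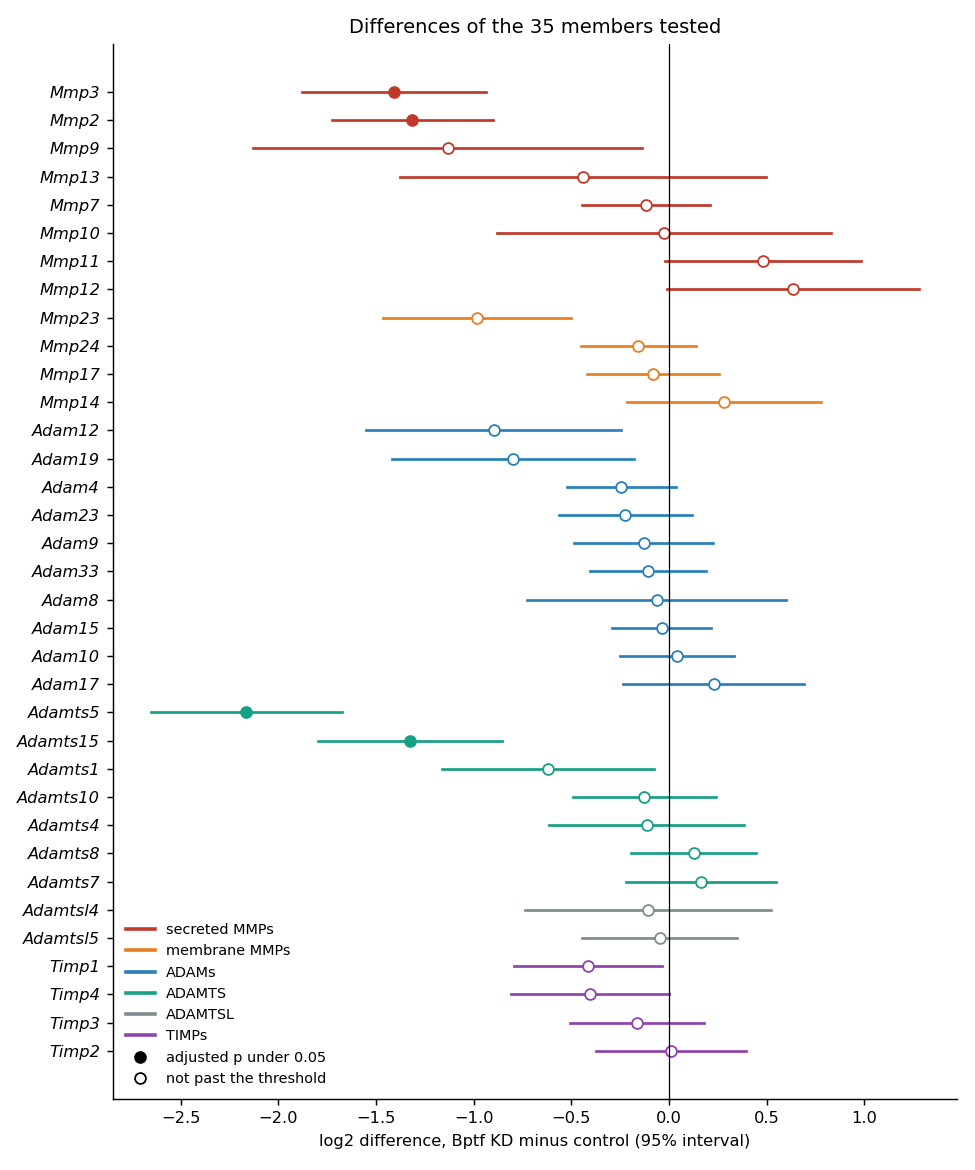
Log2 difference, Bptf KD minus control, on the x axis for the 35 members tested, with the 95% interval from limma as a line and the class as colour; filled points passed an adjusted p of 0.05. The 4 filled points are Adamts5 at -2.16, Mmp3 at -1.41, Adamts15 at -1.33 and Mmp2 at -1.31, and no interval lies wholly above 0.

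Among the secreted MMPs, Mmp2 and Mmp3 fell while the other 6 tested did not pass. Mmp2, a gelatinase that degrades denatured collagen and basement membrane collagen, read 9.53, 9.42 and 9.64 in Bptf KD tumours and 10.52, 10.90 and 11.11 in controls. The highest Bptf KD tumour was below the lowest control, and Mmp2 fell by 1.31 (SE 0.17; limma adjusted p = 0.0392), to a level 0.402 times that of controls. Its other probe set gave a difference of -1.35. Mmp3, a stromelysin that cuts proteoglycans, laminin and other MMP precursors, read 10.22, 10.34 and 10.27 in Bptf KD tumours and 11.49, 11.44 and 12.12 in controls. The Bptf KD tumours lay close together (SD 0.060) and apart from the controls (SD 0.38), and Mmp3 fell by 1.41 (SE 0.20; limma adjusted p = 0.0434), to 0.377 times the control level.

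Mmp9, the gelatinase stored in neutrophil granules, read 8.46, 8.39 and 7.34 in Bptf KD tumours and 9.03, 8.62 and 9.94 in controls. The groups did not overlap, but the tumours of each group spread widely (SD 0.63 in Bptf KD, 0.68 in control) and the difference of -1.13 did not pass (SE 0.42; limma adjusted p = 0.325). Its other probe set gave -0.71. Of the 7 neutrophil markers tested, 6 were positive, beside 60.2% of all genes, and limma called 0. Their mean was 8.93 to 9.0 in Bptf KD tumours and 8.15 to 8.54 in controls. Lcn2 had the largest difference of the list and alone was higher without overlap, while the groups overlapped for the other 6. Lcn2 read 12.72, 11.82 and 12.40 in Bptf KD tumours and 11.44, 8.34 and 9.65 in controls. The separation of the list means rested on Lcn2. For S100a8 and S100a9 the tumour labelled control 2 (10.96 and 10.97) lay within the Bptf KD range, and controls 1 and 3 lay below it. The part of neutrophils in the Mmp9 difference was not tested.

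Mmp12, the macrophage elastase, read 11.50, 11.67 and 10.97 in Bptf KD tumours and 11, 10.24 and 10.99 in controls. Its groups overlapped, and the difference of 0.64 had a 95% interval of -0.0074 to 1.28 (limma adjusted p = 0.378). Mean macrophage markers overlapped as well, at 11.8 to 12.0 in both groups. Mmp11, the stromelysin that furin activates inside the cell, differed by 0.48. Mmp13, the main interstitial collagenase of mice, differed by -0.44, with 1 control (control 3, at 11.77) well above the other 5 tumours, which read 10.10 to 10.64. Mmp10, a stromelysin like Mmp3, differed by -0.03, with a 95% interval of -0.88 to 0.83, and Mmp7, the matrilysin of epithelia, by -0.12. The other 5 secreted MMPs, Mmp1a, Mmp1b, Mmp8, Mmp19 and Mmp20, read between 3.84 and 5.83 in all tumours, under the level filter. Mmp1a and Mmp1b are related genes, and whether their probe sets tell them apart was not tested.

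**Figure D2:**
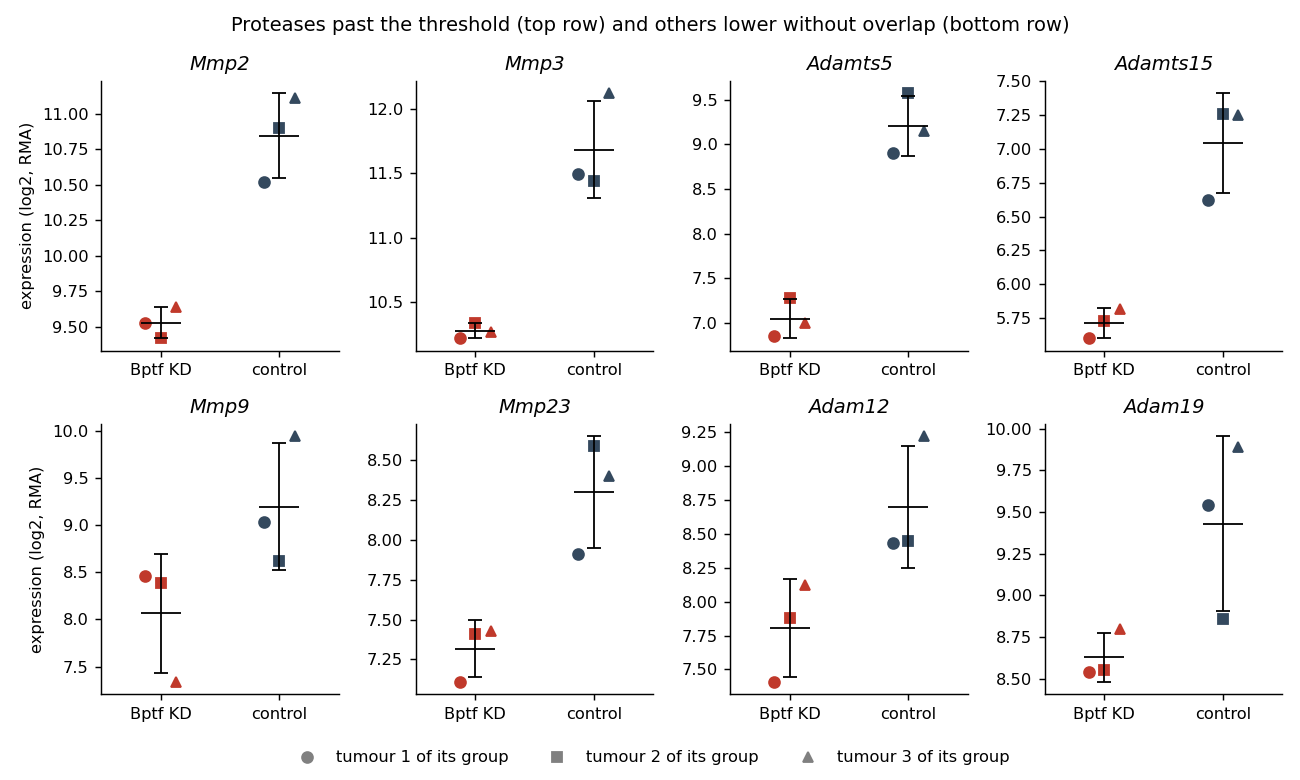
Log2 expression of 8 proteases in each tumour, Bptf KD on the left and control on the right of each panel; symbols mark the tumour's number, horizontal bars the group mean and whiskers 1 SD (n = 3 each). The top row holds Mmp2, Mmp3, Adamts5 and Adamts15, which passed the threshold, and the bottom row Mmp9, Mmp23, Adam12 and Adam19, whose groups also do not overlap but whose differences did not pass.

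Mmp3, Mmp10, Mmp12 and Mmp13 lie in 1 cluster of MMP genes on chromosome 9, between Dcun1d5 and Tmem123, and are shown together because only Mmp3 of the 4 passed the threshold. Mmp1a, Mmp1b, Mmp7, Mmp8, Mmp20 and Mmp27 are the other genes of the cluster, and Mmp27 was not analysed here. Promoters of this cluster are known for an AP-1 element, the site bound by Fos and Jun proteins, close to the start of transcription. The 150 bases before the start annotated by RefSeq (GRCm38.p6) are printed 5' to 3', with the AP-1 element (TGANTCA, searched on both strands) and the TATA box (TATAAA, searched on both strands) in capitals. Mmp12 has 2 annotated starts. The window shown holds the AP-1 element, and the 150 bases before the other start hold none.
Mmp3, chr9:7445672-7445821, plus strand: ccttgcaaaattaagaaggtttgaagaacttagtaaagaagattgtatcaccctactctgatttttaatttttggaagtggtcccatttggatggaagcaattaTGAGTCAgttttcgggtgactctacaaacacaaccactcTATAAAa
Mmp10, chr9:7502192-7502341, plus strand: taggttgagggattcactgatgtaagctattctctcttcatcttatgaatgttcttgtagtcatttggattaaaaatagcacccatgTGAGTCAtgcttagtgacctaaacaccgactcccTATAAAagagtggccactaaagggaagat
Mmp12, chr9:7347224-7347373, plus strand: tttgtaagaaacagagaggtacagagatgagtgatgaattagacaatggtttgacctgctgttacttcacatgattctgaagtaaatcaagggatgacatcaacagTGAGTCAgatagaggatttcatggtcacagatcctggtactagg
Mmp13, chr9:7272364-7272513, plus strand: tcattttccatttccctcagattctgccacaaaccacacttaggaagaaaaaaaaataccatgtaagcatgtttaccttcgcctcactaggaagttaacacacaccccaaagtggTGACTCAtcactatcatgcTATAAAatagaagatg
Each window printed holds 1 AP-1 element, which for Mmp12 depends on the start that was printed. It begins 46 bases before the annotated start in Mmp3, 63 in Mmp10, 44 in Mmp12 and 35 in Mmp13. In the 250 bases before the start the element was found in 6 of the 22 tested members with a window in the RefSeq table, which were these 4, Mmp7 and Adam19, and in 7.82% of 27025 genes. Of the 6, Mmp3 fell and the others did not pass. Mmp2, Adamts5 and Adamts15, which also fell, had no window there and were not searched. The TATA box was found in 5 of the 22, among them Mmp3, Mmp10 and Mmp13, and in 14.3% of all genes. The GC box GGGCGG, searched on both strands, was found in 13 of the 22 and in 35.4% of all genes, and Mmp14, Adam10, Adam17, Timp1, Timp2 and Timp3 were among the 13. A match shows only that these letters are present.

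None of the 4 membrane MMPs tested passed by limma, and 1, Mmp23, was lower at an unadjusted p under 0.05, beside 5.82% of all genes. Mmp23, which is anchored through its start and released by cleavage, read 7.11, 7.41 and 7.43 in Bptf KD tumours and 7.91, 8.59 and 8.40 in controls. The groups did not overlap, and the difference of -0.98 (SE 0.20) stayed above the threshold (limma adjusted p = 0.0991; between 0.00509 and 0.334 over the alternatives). The second Mmp23 probe set differed by -0.90. With the replicate number as a block Mmp23 passed (limma adjusted p = 0.0476), as it did without control 1 (limma adjusted p = 0.0478).

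Mmp14, the membrane enzyme that activates the Mmp2 precursor together with Timp2, read 11.34, 11.78 and 11.87 in Bptf KD tumours and 11.63, 11.05 and 11.46 in controls. These groups overlapped, with a difference of 0.28 (95% interval -0.21 to 0.78; limma adjusted p = 0.640), and its second probe set gave 0.46. The lipid-anchored Mmp17 differed by -0.08 and Mmp24, a membrane MMP of neurons, by -0.16, and the second Mmp24 probe set had the opposite sign (0.077). Mmp16 read 4.55 to 4.88, under the level filter. The median difference was -0.28 over the 8 secreted and -0.12 over the 4 membrane MMPs tested, with no test between the classes.

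Of the 25 ADAMs, 10 were tested. Limma called 0 of them, and 2 were lower at an unadjusted p below 0.05, beside 5.82% of all genes. These 2 were the proteases Adam12 and Adam19, which are known from mesenchymal tissue. Adam12, which cuts growth factor precursors and IGF-binding proteins, read 7.41, 7.88 and 8.12 in Bptf KD tumours and 8.43, 8.45 and 9.22 in controls. Adam19, which takes part in heart valve development and cuts neuregulin, read 8.54, 8.55 and 8.80 in Bptf KD tumours and 9.54, 8.86 and 9.89 in controls. Control 3 was highest for both, and neither overlapped between groups.

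The difference was -0.90 for Adam12 (SE 0.27; limma adjusted p = 0.233) and -0.80 for Adam19 (SE 0.26; limma adjusted p = 0.262). The second Adam19 probe set gave -0.71, while the second of Adam12 lay under the level filter, with -0.25. Without the tumour labelled control 2, whose Adam19 was the lowest of the controls, Adam19 differed by -1.09 and passed (limma adjusted p = 0.0214; between 0.00334 and 0.593 over the alternatives).

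The sheddases that serve most cell types, Adam10 and Adam17, did not pass, and their groups overlapped. Adam10, which releases Notch and cadherins, read 12.13, 11.92 and 12.09 in Bptf KD tumours and 12.09, 11.89 and 12.04 in controls. The difference was 0.04, with a 95% interval of -0.25 to 0.33, and its other 2 probe sets gave 0.090 and 0.10. Adam17, which releases tumour necrosis factor and ligands of the epidermal growth factor receptor, read 10.22, 9.96 and 10.41 in Bptf KD tumours and 10.16, 9.62 and 10.12 in controls. It differed by 0.23 (95% interval -0.23 to 0.69), and its 3 probe sets ranged from -0.11 to 0.23. The broadly expressed Adam9 and Adam15 differed by -0.13 and -0.04, the leukocyte protease Adam8 by -0.06 and Adam33 by -0.11.

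Adam23, which has no protease site and binds integrins, read 6.35, 6.46 and 6.45 in Bptf KD tumours and 6.49, 6.89 and 6.55 in controls. Adam4, a testis ADAM, read 6.5, 6.61 and 6.48 in Bptf KD tumours and 6.90, 6.73 and 6.69 in controls. Both sets lay just above the level filter and did not overlap between groups, with differences of -0.22 and -0.24 that did not pass (limma adjusted p = 0.578 and 0.444). The other 15 ADAMs, most of them known from testis and epididymis, read 3.14 to 6.07 in all tumours: Adam1a, Adam1b, Adam2, Adam3, Adam5, Adam7, Adam11, Adam18, Adam21, Adam22, Adam24, Adam25, Adam26a, Adam28 and Adam34. A further probe set shared by Adam1a and another gene was left out.

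All 7 ADAMTS genes were tested, and Adamts5 and Adamts15 fell. Adamts5, the main aggrecanase of mice, which also cuts versican, read 6.85, 7.28 and 7.0 in Bptf KD tumours and 8.90, 9.57 and 9.15 in controls. The groups lay more than 1 log2 unit apart, and Adamts5 fell by 2.16 (SE 0.21; limma adjusted p = 0.0102), to 0.223 times the control level. This was the lowest difference of the 35 members. The second Adamts5 probe set read 5.25, 5.63 and 5.67 in Bptf KD tumours and 6.58, 7.71 and 6.80 in controls, a difference of -1.51. Its Bptf KD values were all below the filter level of 6.09, so it passed the filter only through its controls. It is no independent sign of a fall, and fitted on its own it was not called (limma adjusted p = 0.114).

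Adamts15, a versican- and aggrecan-cutting enzyme, read 5.60, 5.73 and 5.82 in Bptf KD tumours and 6.62, 7.26 and 7.25 in controls. It fell by 1.33 (SE 0.20; limma adjusted p = 0.0445), to 0.399 times the control level. All Bptf KD values were below the level of 6.09 used as the filter, so that the size of this fall is uncertain. Adamts1, another versican-cutting enzyme, read 8.06, 7.56 and 7.90 in Bptf KD tumours and 8.30, 8.90 and 8.18 in controls. Its groups were separate by a small gap, and the difference of -0.62 did not pass (SE 0.23; limma adjusted p = 0.324).

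The other ADAMTS genes did not pass either. Adamts4, the aggrecanase closest in activity to Adamts5, read 8.49, 7.86 and 8.01 in Bptf KD tumours and 8.37, 7.94 and 8.39 in controls, with a difference of -0.11 (95% interval -0.61 to 0.39). The second Adamts4 probe set differed by -0.33, and the groups overlapped on both. Adamts7, which cuts cartilage oligomeric matrix protein, read 6.09, 6.5 and 6.53 in Bptf KD tumours and 6.14, 6.37 and 6.12 in controls, a difference of 0.16 (limma adjusted p = 0.732). Adamts8 differed by 0.13 and the microfibril-associated Adamts10 by -0.13. The ADAMTSL proteins, which bind matrix and do not cut it, differed by -0.11 (Adamtsl4, a binder of fibrillin) and -0.05 (Adamtsl5). The median of the 9 ADAMTS and ADAMTSL genes was -0.11, beside -2.16 for Adamts5 and -1.33 for Adamts15.

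All 4 inhibitors were tested. Limma called 0 of them, and at an unadjusted p below 0.05 both Timp1 and Timp4 were lower, beside 5.82% of all genes. Timp1, the inducible secreted inhibitor, read 12.30, 12.62 and 12.15 in Bptf KD tumours and 12.65, 12.92 and 12.75 in controls. The highest Bptf KD tumour was just below the lowest control, and the difference of -0.42 did not pass (SE 0.16; limma adjusted p = 0.337). Timp4, an inhibitor known from heart and fat, read 6.06, 6.21 and 5.98 in Bptf KD tumours and 6.36, 6.81 and 6.29 in controls, a difference of -0.40 (limma adjusted p = 0.369). Its second probe set lay under the level filter by mean and read 4.07, 3.88 and 3.92 in Bptf KD tumours and 5.07, 6.87 and 5.58 in controls, a larger difference of -1.88 that was not part of the fit.

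Timp2, which blocks Mmp2 and also takes part in its activation, read 12.01, 12.49 and 12.38 in Bptf KD tumours and 12.27, 12.42 and 12.16 in controls. The groups overlapped, with a difference of 0.01 and a 95% interval of -0.37 to 0.39. Its 5 probe sets above the filter gave 0.01 to 0.090, but 4 of them placed the tumour labelled control 2 below every other tumour of the 6, unlike the brightest. Timp3, which binds to the matrix and also blocks Adam17, read 9.70, 9.30 and 9.44 in Bptf KD tumours and 9.67, 9.53 and 9.73 in controls, a difference of -0.16 (95% interval -0.50 to 0.18). Its 3 probe sets above the filter ranged from -0.16 to -0.05.

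The 13 members without overlap were sorted by which control was highest, a rule that places every gene in a set. Some margins were small: Adamts15 read 7.26 in control 2 and 7.25 in control 3, and Mmp23 read 8.59 and 8.40. Control 3 was highest for 5 of them (Mmp2, Mmp3, Mmp9, Adam12 and Adam19) and the tumour labelled control 2 for 7 (Mmp23, Adam23, Adamts1, Adamts5, Adamts15, Timp1 and Timp4), with control 1 highest for Adam4. Among the controls, control 3 had the highest mean of the epithelial markers (10.34, with 9.63 and 9.82 in the others) and, by a smaller gap, of the fibroblast markers (11.98, with 11.74 and 11.78). The tumour labelled control 2 had the highest mean of the adipocyte markers (10.84, with 9.95 and 10.23) and, by larger gaps, of the skeletal muscle and keratinocyte markers given above. These sets were formed after the values were seen and were not tested.

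**Figure D3:**
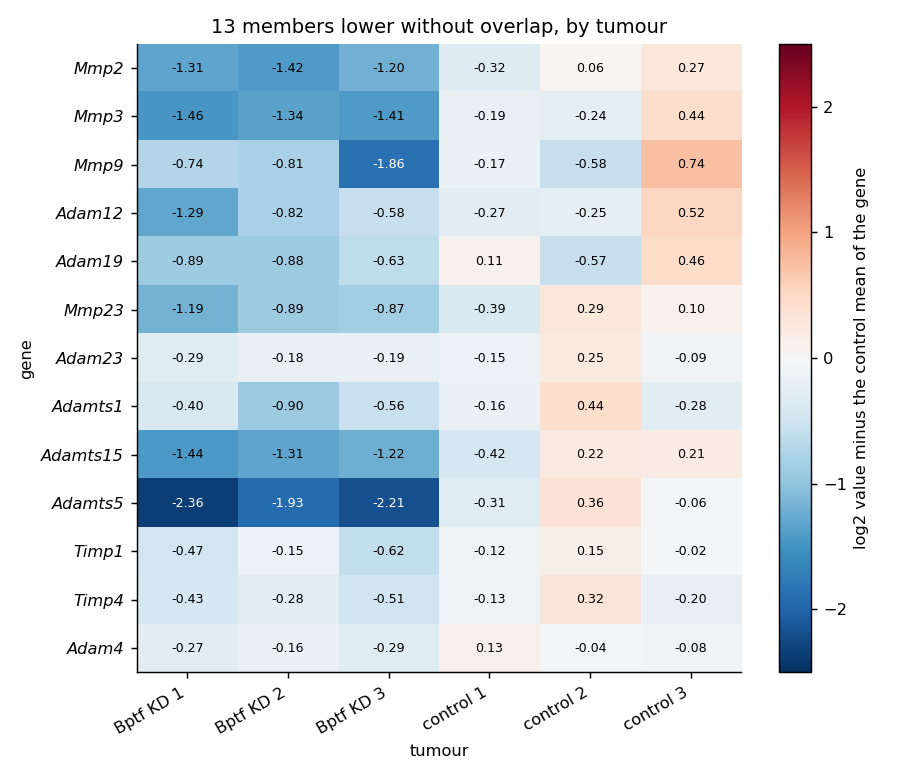
Log2 value minus the control mean of the gene, by tumour, for the 13 members in which every Bptf KD tumour was below every control; rows are grouped by the control that was highest. The first 5 rows are highest in control 3 and the next 7 in the tumour labelled control 2. Adamts5 is the darkest row in the Bptf KD tumours.

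Fibroblast and adipocyte markers were lower in Bptf KD tumours. Over all genes 39.8% were negative and 0.66% were called lower. All 19 fibroblast markers tested were negative, with a median of -0.83, and 5 fell (Col1a1, Col3a1, Col6a3, Dcn and Dpt), with list means of 10.78 to 11.04 in Bptf KD tumours and 11.74 to 11.98 in controls. All 9 adipocyte markers were negative, with a median of -2.85, and 6 fell (Car3, Cidec, Fabp4, Lpl, Plin4 and Retn), with list means of 6.85 to 7.89 in Bptf KD tumours and 9.95 to 10.8 in controls. In whole tumours fewer cells of a type and less RNA per cell cannot be told apart. The part of these markers in the differences of Mmp2, Mmp3, Adamts5 and Adamts15 was not tested. Of the other lists, 11 of 12 epithelial markers were positive (median 0.70, with 0 called by limma, and 5 higher at an unadjusted p below 0.05). Over all genes 60.2% were positive and 7.66% were higher at that level. The 12 endothelial markers were split, with a median of 0.06 and 7 positive. Tek, a receptor of angiopoietins, was the 1 called by limma, as lower (-1.30). Both Tek and Vwf (-0.98) were lower without overlap, against 8.17% of all genes. Cldn5 (0.76) was higher without overlap, against 11.8% of all genes. The 13 macrophage markers had a median of 0.26, with 0 called by limma, but they were split. Cd163 (-2.13) and Mrc1 (-0.75) were lower without overlap, against 8.17% of all genes. Aif1, C1qa, C1qb, C1qc and Lyz2 were higher without overlap, by 0.26 to 0.40, against 11.8% of all genes. All 16 skeletal muscle markers were negative with a median of -1.26, but without the tumour labelled control 2 their median was -0.04. The 5 keratinocyte markers likewise had medians of -0.68 with it and -0.03 without it.

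**Figure D4:**
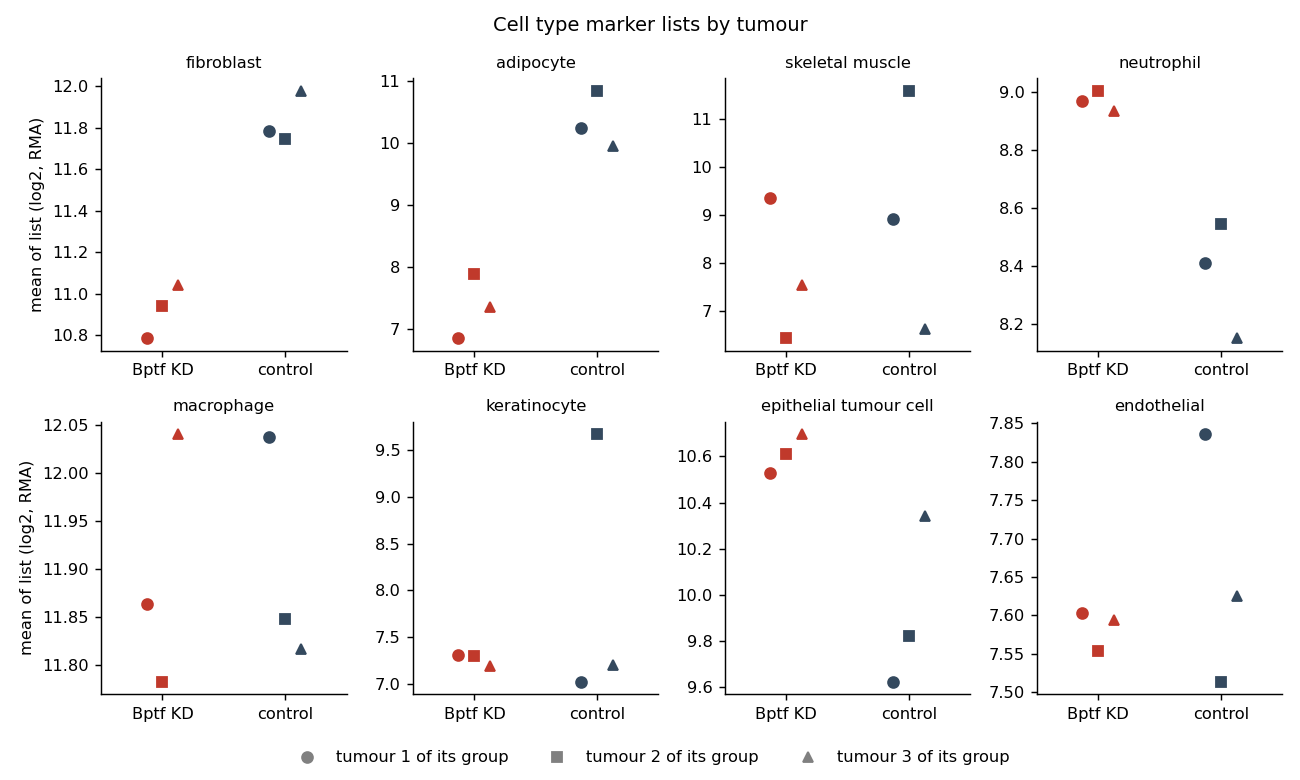
Mean log2 level of 8 cell type marker lists in each tumour, Bptf KD on the left and control on the right of each panel, with symbols for the tumour's number. Fibroblast means are 10.78 to 11.04 in Bptf KD tumours and 11.74 to 11.98 in controls, adipocyte means 6.85 to 7.89 and 9.95 to 10.8, and the tumour labelled control 2 is highest for skeletal muscle and keratinocyte markers.

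Transcripts of matrix proteins that MMPs and ADAMTS enzymes cut were read as a list. Of 21 tested, 5 fell and 0 rose, with a median difference of -0.72, and the other 16 did not pass. Over all genes 0.66% were called lower and 0.151% higher. Dcn, a small proteoglycan that binds collagen fibrils, fell with a difference of -1.70 (limma adjusted p = 0.0385). The fibrillar collagen chains Col1a1 (-1.81) and Col3a1 (-0.91), the microfibrillar Col6a3 (-1.22) and Nid1 (-1.24), a linker protein of basement membranes, fell too (limma adjusted p = 0.0434 for each). The list shares 10 of its 22 genes with the 20 fibroblast markers, so the 2 counts are not separate. Among those that did not pass, fibronectin (Fn1) differed by 0.20, and the basement membrane genes Col4a1, Col4a2, Lamb1 and Lamc1 by -0.14 to -0.08.

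In the plasminogen system, which activates several MMPs, limma called 0 of 8 genes. At an unadjusted p below 0.05, Plat was lower and St14 higher, beside 5.82% and 7.66% of all genes. The plasminogen activator Plat differed by -0.68, the membrane-bound serine protease St14 by 0.44 and the urokinase receptor Plaur by -0.24. Serpinb2, a plasminogen activator inhibitor, read 9.78, 6.12 and 5.06 in Bptf KD tumours and 8.75, 8.42 and 9.13 in controls, so that 1 Bptf KD tumour was the highest of all 6 and the difference of -1.78 was within the spread (SE 1.11; limma adjusted p = 0.568).

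Of 17 regulators of MMPs and ADAMs, limma called 0. At an unadjusted p below 0.05 there were 4 lower and 3 higher, beside 5.82% and 7.66% of all genes. Sfrp1, a secreted Wnt antagonist that also inhibits Adam10, differed by -0.93, the proprotein convertase Pcsk5 by -0.76 and Lrp1, which takes up MMPs and their complexes with inhibitors, by -0.52. Tspan14, a tetraspanin that helps Adam10 to reach the cell surface, differed by 0.62. Of 25 proteins shed by Adam10 or Adam17, limma called 0, and the median was 0.09, beside 0.06 over all genes. At an unadjusted p below 0.05 there were 2 higher and none lower. The 2 are 8% of the list, near the 7.66% of all genes that were higher. The tumour necrosis factor receptor Tnfrsf1b differed by 0.70, the epithelial adhesion protein Epcam by 0.96, L1cam by -0.40 and the adhesion receptor Vcam1 by 0.28. Of the 32 genes listed, 2 (Epcam and Cdh1) are also among the 12 epithelial markers, so Epcam counts as higher in both lists.

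The calls of the 4 enzymes depended on single tumours, while their differences moved little. Without control 3, or without any 1 of the Bptf KD tumours, limma called 0 members, and 8 had an unadjusted p under 0.05 each time. Over all genes the calls were then 10 without control 3, and 2, 6 and 0 without Bptf KD 1, 2 and 3. Without the tumour labelled control 2, 5 members were called (Adam19 joined the 4) among 412 genes. Without control 1, 4 were called, with Mmp23 in place of Mmp3 (limma adjusted p = 0.0548). In these 6 fits Adamts5 ranged from -2.32 to -1.98, Mmp3 from -1.53 to -1.19, Mmp2 from -1.48 to -1.18 and Adamts15 from -1.54 to -1.22. Across the alternatives limma's adjusted p lay at 0.000226 to 0.0812 for Adamts5, 0.00111 to 0.178 for Mmp3, 0.00145 to 0.176 for Mmp2 and 0.00195 to 0.191 for Adamts15.

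**Figure D5:**
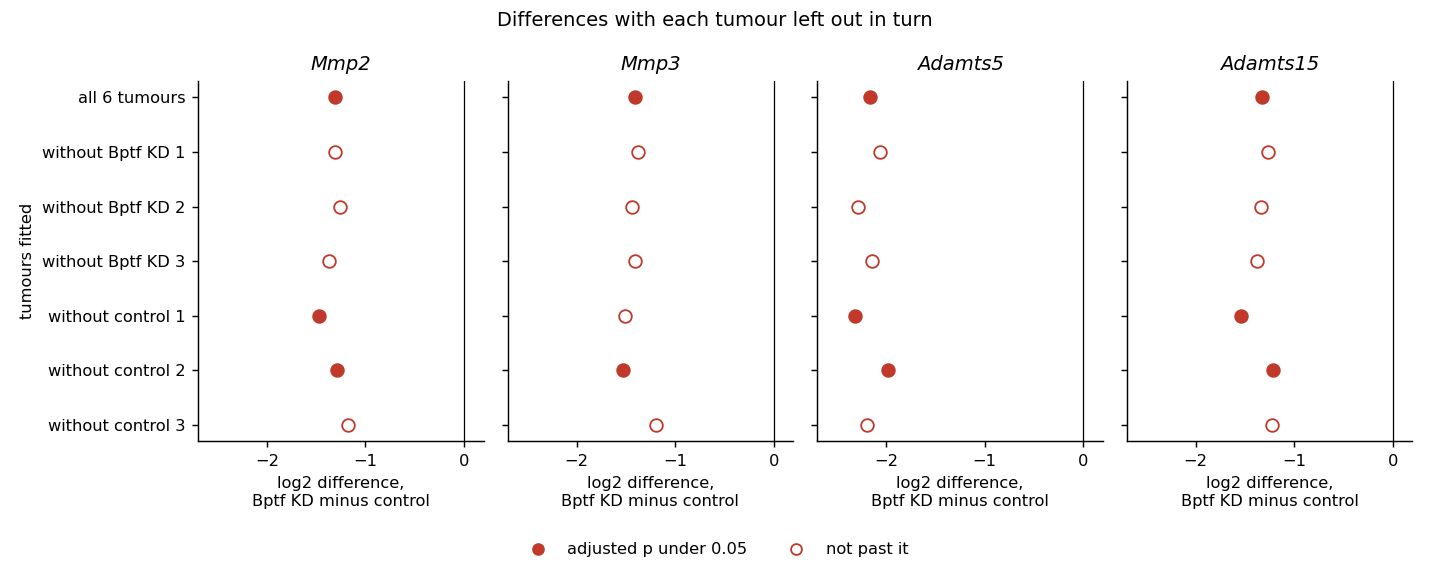
Log2 difference, Bptf KD minus control, of Mmp2, Mmp3, Adamts5 and Adamts15 with all 6 tumours (top row) and with each tumour left out in turn; filled points passed an adjusted p of 0.05. All points lie between -2.32 and -1.18, and those without a Bptf KD tumour or without control 3 are open for all 4 genes.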

How the data were processed

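RNA of 3 Bptf KD and 3 control tumours was read on Affymetrix arrays, from 500 ng of total RNA each per the labels' protocols. The deposited values are log2 levels made by the authors with RMA (per the submitters' processing notes, without a version). The log base is not given and was taken as 2, RMA's own scale. There is no detection call, so the background in dim levels is unknown. The number of arrays limits the precision.

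A single gene was annotated by GEO's platform table for 20380 probe sets. Symbols were matched by Entrez identifier to RefSeq (GRCm38.p6), and no symbol changed. A gene was read from the probe set with the highest mean, kept above the 30% quantile of probe set means. The groups were compared by limma (version 3.58.1, run in R 4.3.3, lmFit and eBayes without a covariate) with Benjamini-Hochberg adjustment over 9248 genes, threshold 0.05. Whether the tumours came from separate mice is not given, so the p-values measure the spread between these tumours. The procedure was tested on simulated data.

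Each member past the threshold, each TIMP, up to 4 members a class and up to 4 genes a pathway list with the smallest p were named with full values, and the others by difference. The tumours' values of Adam10, Adam17 and Adamts4 were added after they were seen, as were the promoter motifs. The members, lists and alternatives were chosen with earlier results of these data known. A planned division of the ADAMs by a protein pattern was not made. It was replaced by known roles. The replicate numbers were not taken as pairs.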

Additional observations from a re-analysis of the deposited data

How the results depend on the processing

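Over 17 alternatives Mmp2, Mmp3 and Adamts5 kept a negative difference, as did Adamts15 in the 16 that measured it. Members called numbered 4 in the result as reported. They numbered 1 with every probe set fitted on its own (Adamts5; 38 of 14572 probe sets with 1 gene called), 9 with array weights (1676 genes called) and 2 with the muscle list mean as a covariate (Adamts5 and Mmp3; 49 genes). Leaving out each tumour in turn gave 0 to 5 members and 0 to 412 genes. The stricter filter gave 42 genes and 3 members, without Adamts15, which it does not keep. The second quantile normalisation ended the call of Adamts15 (limma adjusted p = 0.0555). With the replicate number as a block, 5 members and 107 genes were called. It added Mmp23 and ended no call among the 4. The deviations of same-numbered tumours from their group means correlated across genes at 0.0054, 0.28 and 0.37 for numbers 1, 2 and 3. Bptf KD 1 correlated best with control 2 (0.11), and Bptf KD 3 nearly as well with control 1 (0.353) as with control 3 (0.372). Pairing by number was thus not shown. Array weights also called Adam12, Adam19, Mmp9, Mmp23 and Timp1. The cause of these moves was not tested. The probe set fit adjusts p over more values.

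Signs turned only in members that did not pass the threshold. When tumours were left out, Adam10 ranged from -0.0183 to 0.10, Adam8 from -0.33 to 0.21, Adamts4 from -0.30 to 0.0167, Adamtsl4 from -0.40 to 0.055, Adamtsl5 from -0.18 to 0.0617, Mmp10 from -0.43 to 0.26, Mmp13 from -0.71 to 0.0317, Mmp17 from -0.15 to 0.0467 and Timp2 from -0.0883 to 0.15. The setting with array weights gave 0.0465 for Adamts10, 0.17 for Adamtsl5 and 0.0234 for Mmp17. The setting with mean of all probe sets gave 0.0625 for Adam15. The setting with median centring gave -0.0033 for Timp2. The setting with muscle list mean as a covariate gave 0.0419 for Adamtsl5. The setting with the probe set of largest SD gave 0.23 for Adam15 and 0.0767 for Mmp24.

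With 3 tumours a group and no detection call, levels under the filter of 6.09 bound no fold.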
